A study of Mus musculus with 7 samples.

Results

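The genes described here are 39 interferon-stimulated genes, chosen by name as known genes of the pathway out of the 33864 genes listed in any of the 3 count tables of the series. All 39 were listed in all 3 tables. They fall into 6 sensors and transcription factors (Irf7, Irf9, Stat2, Ifih1, Dhx58 and Zbp1), 7 Ifit, Isg15 and radical SAM effectors (Ifit1, Ifit2, Ifit3, Ifit3b, Isg15, Rsad2 and Cmpk2), 5 oligoadenylate synthetase genes (Oas1a, Oas2, Oas3, Oasl1 and Oasl2), 3 Mx and membrane restriction genes (Mx1, Mx2 and Bst2), 2 enzymes of the ISG15 pathway (Usp18 and Herc6), 7 interferon-inducible GTPases (Gbp2, Gbp3, Gbp5, Gbp7, Igtp, Irgm1 and Iigp1) and 9 others (Ifi44, Ifi27l2a, Ifi35, Xaf1, Trim30a, Rtp4, Parp14, Lgals3bp and Slfn5). The study dissociated whole mouse pancreas and counted transcripts in single cells with the 10x Genomics 3′ kit, in which each captured transcript carries a unique molecular identifier (UMI). It holds 7 libraries, each labelled as a separate mouse, in 3 groups. The 2 WT mice were wild type and drank doxycycline at 1 mg/ml, sweetened with 7.5% sucrose, over 7 days. The 3 i4F mice drank the same and carried the i4F-B alleles, a doxycycline-inducible cassette for Oct4, Sox2, Klf4 and c-Myc (OSKM) in Pparg and the activator rtTA in Rosa26, so that the cassette was not restricted to a pancreatic cell type. The 2 CER mice were wild type, carried no doxycycline or sucrose label, and had mild acute pancreatitis from caerulein, an analogue of the secretagogue cholecystokinin, at 100 µg/kg, injected 7 times a day on 2 days. By their labels, CER mice thus differ from both other groups in doxycycline and sucrose as well as in caerulein. The parts of these cannot be told apart in any comparison with CER mice. All mice were labelled C57BL/6 and 2 months old, and the study's methods give C57BL/6J.Ola.Hsd as the background of the i4F line.

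Interferons are secreted cytokines that cells make after sensing viral nucleic acids, damaged DNA or other danger signals. Type I interferons act through the IFNAR receptor, the kinases JAK1 and TYK2 and a transcription factor complex with STAT2 and IRF9 as subunits, which binds a DNA motif called the interferon-stimulated response element (ISRE). Type II interferon, made mainly by NK and T cells, acts mainly on genes with a second motif, the GAS element. The induced genes include RNA-binding effectors, nucleotide-making enzymes that switch on RNA decay, GTPases that attack pathogen vacuoles, and feedback regulators such as USP18. In the pancreas such programmes are known from viral infection, autoimmunity and inflammation.

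Promoter sequences of the members are shown first, because the ISRE is the DNA feature that the group is known for and that the choice of genes did not use. A RefSeq promoter (GRCm38.p6) was matched for 29 of the 39 members. The ISRE was searched on both strands as TTTC, any 2 bases and TTTC again, which reads as GAAA, any 2 bases and GAAA on the other strand, in the 250 bases before the transcription start. It was present in 17 of those 29 genes (58.6%), against 3.46% of the 27025 genes with a RefSeq promoter, a gene counting once if any of its promoters of this length matched. The GAS letters, TTC, any 3 bases and GAA on either strand, were present in 6 members (20.7%) against 8.13% of those genes. The stretches below come from members with a match that the results turn on. Irf7, Irf9, Ifih1, Ifit2, Cmpk2, Oasl1, Oasl2, Herc6, Ifi44, Ifi35, Xaf1 and Lgals3bp had a promoter but no ISRE match. For Usp18, Rtp4, Zbp1, Iigp1, Dhx58, Oas2, Mx1, Mx2, Ifi27l2a and Parp14 no promoter was matched, so none was searched. The capitals mark ISRE matches, several of which overlap, and the remaining letters are in lower case.
Isg15, chr4:156200845-156200914, minus strand: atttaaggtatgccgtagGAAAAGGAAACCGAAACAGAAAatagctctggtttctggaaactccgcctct
Ifit1, chr19:34640774-34640843, plus strand: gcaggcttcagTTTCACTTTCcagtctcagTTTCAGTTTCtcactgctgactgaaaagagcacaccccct
Ifit3, chr19:34583377-34583446, plus strand: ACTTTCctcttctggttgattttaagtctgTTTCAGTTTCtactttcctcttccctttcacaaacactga
Gbp3, chr3:142559974-142560025, plus strand: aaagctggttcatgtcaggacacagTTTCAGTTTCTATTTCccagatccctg
Oas1a, chr5:120907526-120907595, minus strand: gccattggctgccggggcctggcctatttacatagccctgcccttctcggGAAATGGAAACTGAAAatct
Bst2, chr8:71537557-71537626, minus strand: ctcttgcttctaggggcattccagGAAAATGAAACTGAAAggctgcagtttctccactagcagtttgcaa
The match nearest the start lay 4 bases before it in Oas1a, 29 in Gbp3, 56 in Isg15, 75 in Ifit1, 112 in Ifit3 and 114 in Bst2. The capitals that open the Ifit3 stretch are the end of a further match that began before it. The corresponding stretch of the neighbouring gene Ifit3b, chr19:34607773-34607842, has the same letters as that of Ifit3. The stretch lies before the start, and how reads of the transcripts of this pair were assigned was not tested. The genes are counted separately below. A match is a description of the letters, not evidence that the element was used in these cells.

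The tables hold 58473 cells in 40 clusters named by the authors, with 4327 to 15138 cells and 15469018 to 64784216 UMIs per mouse. Of these UMIs, 23373 (CER 2) to 150139 (i4F 1) came from the 39 genes. The median depth ran from 1248.5 UMIs per cell in i4F 3 to 4247 in i4F 1. Transcripts of rtTA summed to 2571, 1824 and 722 UMIs in i4F 1, 2 and 3 and to 1 to 16 in the other 4 mice. Pou5f1, the gene of Oct4, had 154, 315 and 3 UMIs in i4F 1, 2 and 3, 16 and 3 in WT and 31 and 32 in CER mice, and Sox2 had 15, 40 and 0 in i4F mice and 0 or 1 elsewhere. The library labelled i4F 3 thus carried rtTA, while its counts of both cassette factors were no higher than in WT mice, and whether these counts catch the cassette's transcripts was not tested. Pairs of libraries shared 3 to 39 cell barcodes. Counts were summed per mouse over authors' clusters placed in the same class, and given as CPM, a scale on which the UMIs of every sum have the same total. Endothelial clusters were led by endothelial markers in every group, but they held different amounts of lymphatic endothelial RNA. The summed level of 6 lymphatic markers was 92.1 and 86.1 CPM in WT, 1475, 699.6 and 2087 CPM in i4F and 1059 and 882 CPM in CER endothelial sums. In WT, 88 lymphatic cells sat in a cluster of their own, named lymph nodes, at 3306 CPM of the 39 genes against 8970 CPM in the larger WT endothelial cluster. The stellate sum includes a WT cluster named activated stellate that was led by the smooth muscle genes Acta2, Tagln and Myh11. Clusters named smooth muscle in i4F (229 cells) and CER mice (168 cells), led by Rgs5 and Myh11, were left out. Mesothelium clusters of WT and CER mice, at 2727 and 2405 CPM of the 39 genes, were left out too. The second i4F stellate cluster was kept, though Slpi and Upk3b are among its leading genes and among those of both mesothelium clusters. The part of these choices in the stellate values was not tested, except as given with the stellate counts. The myeloid sum includes clusters named macrophages that were led by dendritic or neutrophil markers, and the caerulein cluster named B lymphocytes was led by H2-Aa and other dendritic genes and was left out. Several comparisons below depend on i4F 3, which lay nearer to the WT mice than i4F 1 and i4F 2 did in many values, and are given with and without it.

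Endothelial cells carried the highest summed level of the 39 genes in WT pancreas. In the endothelial sums the level was 9404 CPM in WT 1 and 8020 CPM in WT 2, and in the myeloid sums it was 3097 and 3335 CPM. It was 2051 and 1834 CPM in stellate cells, 1248 and 1502 CPM in NK and T cells, 1047 and 731 CPM in B lymphocytes, 755 and 674 CPM in ductal cells and 284 and 369 CPM in acinar cells. Acinar levels thus lay below every other class in both WT mice, B lymphocyte and ductal levels overlapped, and NK and T levels lay above both. By cluster, with CPM pooled over the mice of a group, 24 of the 39 genes were highest in Endothelial_1, 1 of 2 WT endothelial clusters, and 2 more in Endothelial_2. A further 8 genes were highest in the WT macrophage clusters and 2 in mesothelium.

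The order of the classes was different in i4F mice. Endothelial summed levels were 3358, 3364 and 6381 CPM in i4F 1, 2 and 3, and myeloid levels were 5676, 5814 and 3041 CPM. In i4F 1 and i4F 2 the myeloid level was above the endothelial level, whereas i4F 3 kept the order of the WT mice. The myeloid cells of these mice sat in different clusters: 2921 of 3495 in i4F 1 and 2735 of 3257 in i4F 2 were in Macrophages_1, led by Chil3, Arg1 and Pf4, against 183 of 480 in i4F 3, of which 282 were in Macrophages_3, led by H2-Eb1 and other dendritic genes. The summed level of 8 dendritic markers was 896 and 621 CPM in WT, 81.8, 51.7 and 889 CPM in i4F and 5.93 and 4.84 CPM in CER myeloid sums, and its part in the myeloid values was not tested. With the mice pooled, endothelial cells held the highest level of 20 of 39 genes and the 3 macrophage clusters of 16, where i4F 3 gave 768676 of the endothelial UMIs, more than either of the others. In CER mice the endothelial level was 2562 and 2574 CPM, the myeloid level 1987 and 1818 CPM and the stellate level 1167 and 1317 CPM. All 3 classes lay below both WT mice there, and with both mice pooled 12 genes were highest in endothelial cells, 17 in macrophage clusters and 6 in mesothelium.

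**Figure D1:**
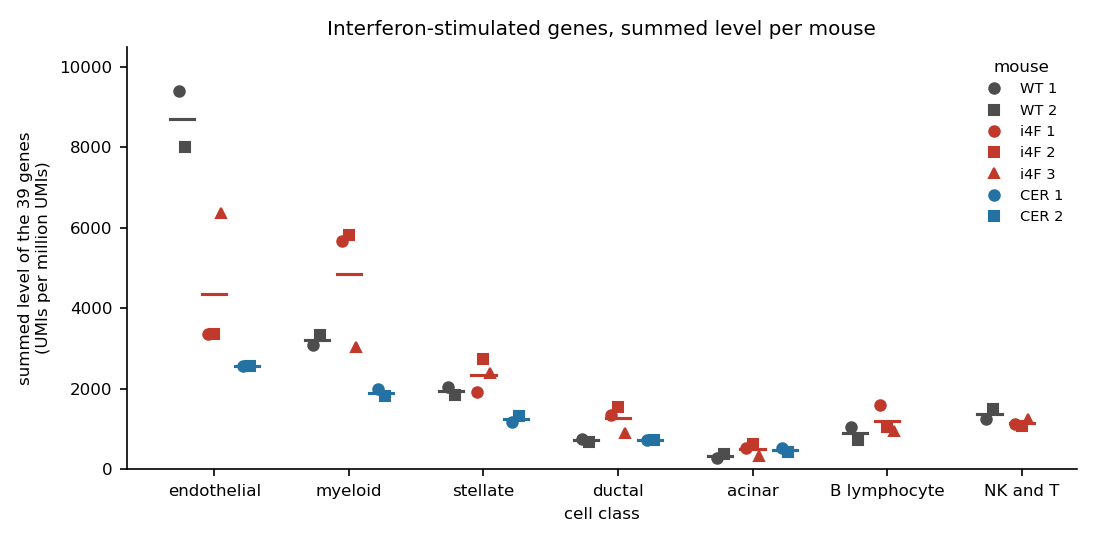
Summed level of the 39 interferon-stimulated genes in CPM for each mouse (points) and cell class, with bars for the group means. Endothelial sums run from 8020 to 9404 CPM in WT mice, 3358 to 6381 CPM in i4F mice and 2562 to 2574 CPM in CER mice.

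On the log2 scale the ratio of group means of the endothelial summed level was -1.0 for i4F against WT, -1.37 without i4F 3, and -1.76 for CER against WT. In myeloid cells it was 0.59 for i4F against WT, 0.84 without i4F 3, and -0.76 for CER against WT. The ductal ratio was 0.82 for i4F against WT and 0.01 for CER. The acinar ratios were 0.60 and 0.56. For CER against WT the median log2 fold change of the members was -0.69 in ductal and -0.52 in acinar cells, unlike the ratios of the sums. Over all genes tested it was -0.07 and 0.10. In i4F 1 and 2 the endothelial level lay below and the myeloid level above both WT mice, whereas in i4F 3 and in both CER mice both levels lay below. These sums weigh abundant genes most, and they carry no test.

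**Figure D2:**
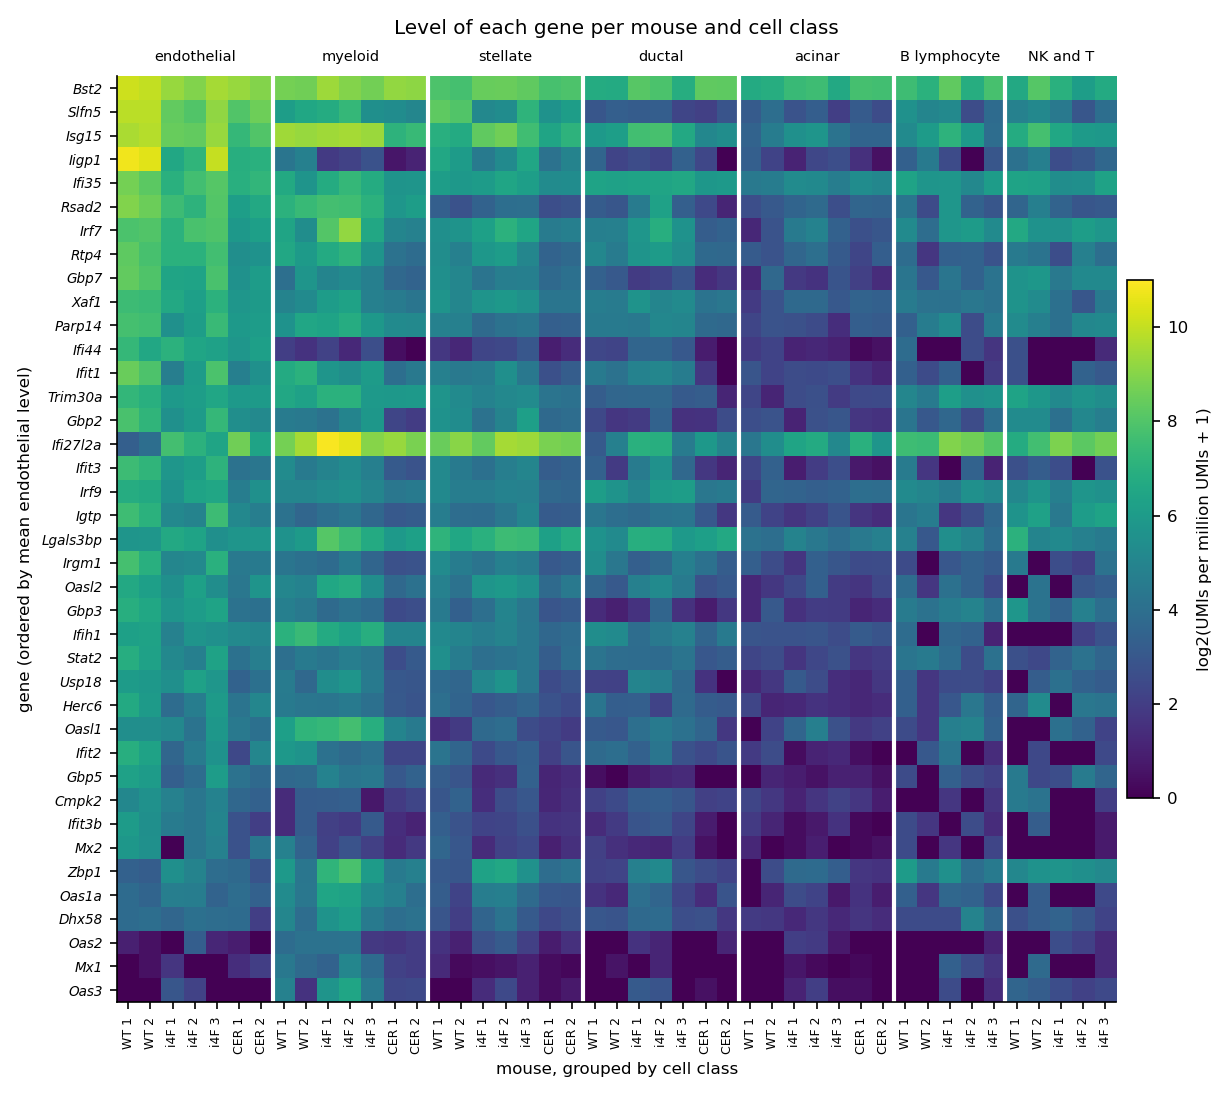
Level of each of the 39 genes (rows, ordered by mean endothelial level) in each mouse (columns) and cell class, as colour from dark (0) to yellow on a log2(CPM + 1) scale. The WT endothelial columns are the brightest for most Ifit genes, GTPases and Slfn5, while Irf7, Oasl2 and Ifi27l2a are brightest in i4F 1 and i4F 2 within myeloid cells.

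Depth per cell differed between libraries, so cells were also thinned to 500 UMIs each, leaving out shallower cells. This left out most cells of the WT cluster Endothelial_2 (1051 cells, median 321 UMIs), at 6530 CPM of the 39 genes against 8970 CPM in Endothelial_1. The median was 807 UMIs in the i4F and 1138 UMIs in the CER endothelial cluster, so the loss was unequal between groups. Of thinned endothelial cells, 71.4% and 61.9% held at least 3 UMIs of the 39 genes in WT 1 and 2. The share was 29.8%, 23.0% and 47.9% in i4F 1, 2 and 3, and 18.3% and 17.1% in CER 1 and 2. All i4F and CER shares lay below both WT shares. Of thinned myeloid cells the share was 22.3% and 28.9% in WT mice, 50.4%, 48.4% and 20% in i4F mice and 10.6% and 9.46% in CER mice. Here i4F 1 and 2 lay above and both CER mice below the WT mice, while i4F 3 lay just below WT 1. Before thinning, the endothelial shares were 61.3% and 79.1% in WT mice, 46.6%, 45.2% and 57.1% in i4F mice and 56.8% and 42.4% in CER mice. The unthinned myeloid shares were 85.6% and 81.7%, then 85.8%, 82.2% and 70.6%, then 64.1% and 47.0%.

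**Figure D3:**
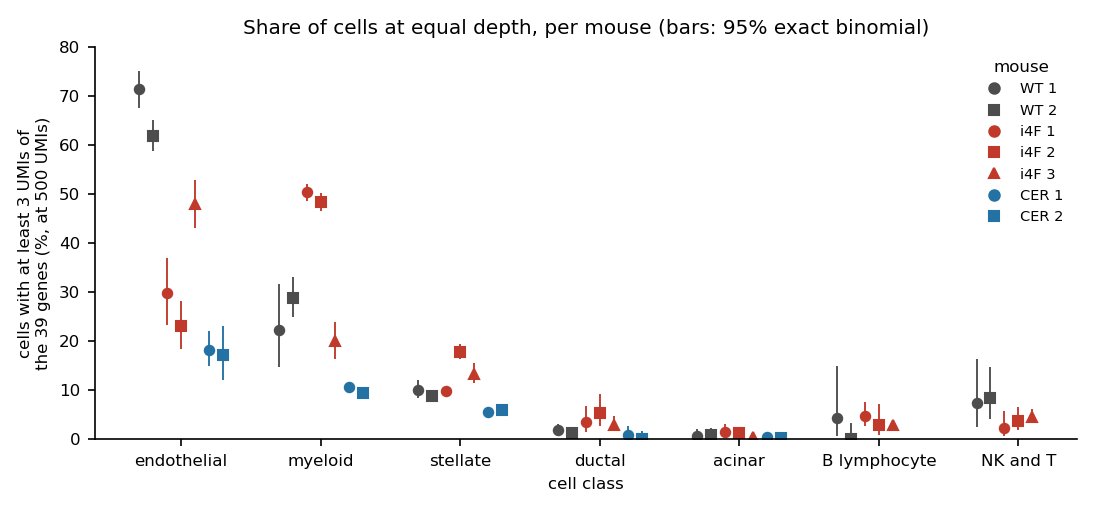
Percent of cells with at least 3 UMIs of the 39 genes after thinning every cell to 500 UMIs, per mouse and cell class, with exact 95% binomial intervals that cover counting error only. Endothelial cells run from 71.4% in WT 1 down to 17.1% in CER 2, and acinar cells stay near 0 in every mouse.

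The first question put to these sums was whether the 39 genes differed between WT and caerulein endothelial cells. Most were lower in CER mice, which also differ from WT in doxycycline: of 36 members tested, 9 fell and 1 rose, against 4.11% of all 8153 genes tested called in either direction and 0.564% called lower. The median log2 fold change of the members was -1.81, against 0.00 over all genes tested, and 31 of 36 had both CER mice below both WT mice, as did 31.5% of all genes tested. Of the Ifit, Isg15 and radical SAM effectors 4 of 7 fell, with a median of -2.88, and of the GTPases 1 of 7 fell, with a median of -2.30. Ifit3, a partner in complexes that bind foreign RNA, was at 185 and 145 CPM in WT 1 and 2 and at 16.8 and 19.0 CPM in CER 1 and 2. Both CER mice were far below both WT mice, with a log2 fold change of -3.10 ± 0.50 (SE; adjusted p = 0.011). Its neighbour Ifit3b was at 64.9 and 43.1 CPM against 5.87 and 3.17 CPM, a log2 fold change of -3.20 (adjusted p = 0.00609). Isg15, a ubiquitin-like protein that is attached to other proteins, was at 776 and 881 CPM in WT mice and 159 and 260.3 CPM in CER mice. Its groups were well apart (-1.93 ± 0.40; adjusted p = 0.033). Rsad2, the radical SAM enzyme viperin, went from 478 and 364 CPM to 71.3 and 98.4 CPM (-2.24; adjusted p = 0.0123).

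Irf7, the transcription factor that amplifies type I interferon production, was at 235 and 260.0 CPM in WT endothelial sums and at 57.0 and 73.0 CPM in CER sums. This difference passed the test (log2 fold change -1.86 ± 0.36; adjusted p = 0.0233). Gbp3, a guanylate-binding GTPase, was at 117 and 92.6 CPM against 16.8 and 15.9 CPM (-2.53; adjusted p = 0.00609), and Rtp4, a chaperone of receptor transport, at 313 and 224 CPM against 41.9 and 47.6 CPM (-2.48; adjusted p = 0.00623). Usp18, which removes ISG15 from proteins and damps the interferon receptor, was at 64.9 and 57.7 CPM against 10.1 and 15.9 CPM (-2.25; adjusted p = 0.0129). The ninth member that fell was Xaf1, an apoptosis-associated gene (-1.55; adjusted p = 0.0396). Each of the 9 genes was lower in both CER mice than in either WT mouse.

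Several members had large endothelial differences after caerulein that did not pass the test. Ifit1, which binds RNA with an unmethylated cap, was at 359.7 and 241 CPM in WT mice and 26.0 and 44.4 CPM in CER mice (log2 fold change -3.07 ± 0.88; adjusted p = 0.093). Stat2, a subunit of the factor that binds the ISRE, was at 115 and 76.4 CPM against 15.9 and 25.4 CPM (adjusted p = 0.0682). Irgm1, an immunity-related GTPase that regulates others of its family, was at 213 and 123 CPM against 20.97 and 22.2 CPM (adjusted p = 0.0599), and Gbp2 at 231 and 146 CPM against 42.8 and 34.9 CPM (adjusted p = 0.0836). The groups of these 4 genes did not overlap either. Smaller differences were seen for Oasl2, at 97.8 and 72.7 CPM against 19.3 and 50.8 CPM (adjusted p = 0.122), and for Bst2, the membrane tether tetherin, at 1147 and 1011 CPM against 629 and 492 CPM (adjusted p = 0.176). Lgals3bp, a secreted galectin-binding glycoprotein, was at 51.5 and 53.2 CPM in WT mice and 52.0 and 54.0 CPM in CER mice (log2 fold change 0.12 ± 0.35; adjusted p = 0.892).

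Ifi27l2a, a small interferon-induced membrane protein, was the member that rose in caerulein endothelial cells. It was at 9.06 and 14.6 CPM in WT mice and at 394 and 82.5 CPM in CER mice, which differ from each other several times over and both lie above WT (log2 fold change 4.49 ± 0.76; adjusted p = 0.0129). Immune RNA moved with it: the summed level of 8 immune cell genes in the endothelial sums was 37.7 to 84.5 CPM in WT mice, 336 to 1044 CPM in i4F mice and 5577 to 8225 CPM in CER mice, with all 8 genes above 0 in every group, and Ifi27l2a was at 441 to 631 CPM in CER myeloid cells. The part of that RNA in the difference was not tested. The count of 10 endothelial calls was 0 without CER 1, 4 without WT 1, 5 without CER 2, 7 without WT 2 and 26 without i4F 3, 25 of them lower, where 4.24% of all genes were called lower. The share of all genes called is not given for the other fits that left out a mouse, so their lower counts are not by themselves a result about the members. With the WT lymphatic cluster added, a choice made after seeing the data, 9 members fell and 1 rose. With the name series of the library as a term it was 4. Within the AM series, which holds WT 2 and both CER mice, the log2 ratio of the summed level was -1.64.

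Comparing i4F with WT endothelial cells asks whether OSKM induction changed the same genes. No member passed the test out of 36, against 0.810% of all genes tested, with 2 members higher and 11 lower at an unadjusted p under 0.05, against 10.9% and 7.31% of all genes. DESeq2 called 1, with 3.58% of all genes. The median log2 fold change was -0.78 against 0.02 over all genes tested, and 21 of 36 members had all 3 i4F mice below both WT mice, as did 21.9% of all genes tested. The values split by mouse: Ifit1 was at 24.96 and 64.4 CPM in i4F 1 and 2 but at 235 CPM in i4F 3, close to the 241 CPM of WT 2 (adjusted p = 0.346). Irgm1 was at 31.8, 34.8 and 126 CPM (adjusted p = 0.276), Gbp2 at 45.4, 64.4 and 157 CPM (adjusted p = 0.332), and Stat2 at 34.0, 26.1 and 80.7 CPM (adjusted p = 0.328). In each of these, i4F 3 lay within or just beyond the WT range while i4F 1 and 2 lay below it. Iigp1, an effector GTPase, was at 1717 and 1465 CPM in WT mice and at 95.3, 148 and 1037 CPM in i4F mice. Without i4F 3, 23 members passed, 2 higher and 21 lower, and that fit called 7.43% of all genes higher and 6.86% lower.

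Other endothelial members differed less between i4F mice. Ifit3 was at 54.5, 67.9 and 137 CPM in i4F 1, 2 and 3 (adjusted p = 0.295), Isg15 at 352, 329 and 624 CPM (adjusted p = 0.253) and Bst2 at 638, 484 and 738 CPM (adjusted p = 0.228). For all of these the i4F mice lay below both WT mice. Irf7 was at 134, 226 and 248 CPM, overlapping WT (log2 fold change -0.20 ± 0.30; adjusted p = 0.772), and Oasl2 at 43.1, 74.8 and 41.6 CPM (adjusted p = 0.407). Lgals3bp was at 99.8, 81.8 and 44.2 CPM (adjusted p = 0.373). Ifi27l2a was at 206, 132 and 84.6 CPM, above both WT mice in all 3, and missed the threshold (3.59 ± 0.72; adjusted p = 0.0605).

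Set against caerulein directly, i4F endothelial cells had 2 members higher and 0 lower of 36, against 0.601% of all genes called and 0.0613% called higher. They were Usp18, at 43.1, 76.6 and 53.3 CPM in i4F mice (log2 fold change 2.25 ± 0.38; adjusted p = 0.0422), and Gbp3, at 52.2, 66.1 and 83.3 CPM (2.00 ± 0.35; adjusted p = 0.0469). The median of the members was 1.11, against 0.02 over all genes tested. Leaving out i4F 1, i4F 2, CER 1 or CER 2 left 0 calls, leaving out WT 1 left 1, and leaving out i4F 3 gave 4, with 0.911% of all genes. All i4F libraries are of the AL name series and all CER libraries of the AM series, with 1 WT mouse in each, so a term for the series rests on those 2 WT mice. With that term the count was 0.

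**Figure D4:**
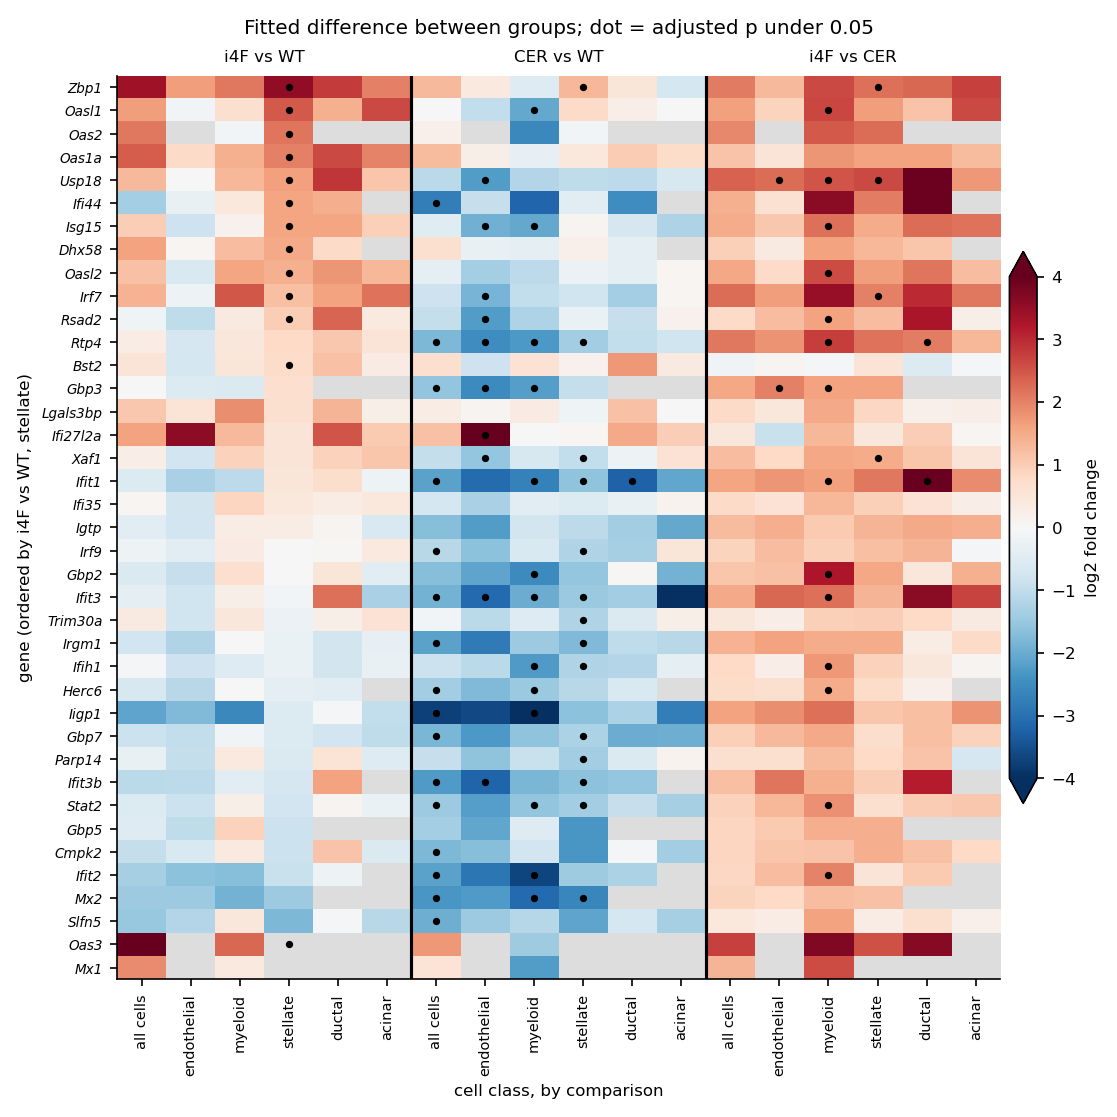
Log2 fold change of each gene (rows) in each cell class and comparison (columns), coloured blue for lower and red for higher with the scale ending at 4 in either direction; dots mark adjusted p under 0.05, and grey marks genes not tested or with a group at 0 UMIs. In the CER against WT columns the Ifit genes and GTPases are mostly blue, and in the stellate i4F against WT column 12 of the 13 called genes are red and Oas3 is grey because WT had 0 UMIs.

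In myeloid cells the 39 genes were mostly lower in CER mice than in both other groups. The clusters under these sums differ: 3890 of 7619 myeloid cells of CER 1 and 2076 of 2836 of CER 2 were in the CER cluster Macrophages_1, led by Apoe, Gpnmb, Trem2 and others, at 1630 CPM of the 39 genes. The WT cluster of that name, with 45 of 104 cells of WT 1 and 418 of 514 of WT 2, was led by C1qb, Ccl4, Ccl3, Tnf and others, at 4320.0 CPM. The part of this difference in the CER values was not tested. Against WT, 13 of 39 fell and 0 rose, with 5.66% of all 12077 genes tested called and 3.42% called lower, and the median log2 fold change was -1.42 against a median near 0 over all genes tested. The Ifit, Isg15 and radical SAM group had 4 of 7 lower, the GTPases 3 of 7 and the sensors and transcription factors 2 of 6. Against i4F, 14 of 39 were lower in CER mice, with 1.67% of all genes called and 1.18% called higher in i4F. In that comparison 5 of 7 Ifit, Isg15 and radical SAM genes, 2 of 5 OAS genes and both ISG15 pathway enzymes passed. Between i4F and WT, 0 members passed against 0.00828% of all genes, with 10 higher and 5 lower at an unadjusted p under 0.05 (10.2% and 9.73% of all genes) and 8 called by DESeq2, which called 5.09% of all genes.

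Isg15 was at 681 and 635 CPM in WT myeloid cells, at 688, 722 and 655 CPM in i4F 1, 2 and 3 and at 137 and 172 CPM in CER mice. WT and i4F mice overlapped, and CER mice lay well below both, with log2 fold changes of -2.04 ± 0.22 for CER against WT (adjusted p = 0.0328) and 2.21 ± 0.21 for i4F against CER (adjusted p = 0.022). Ifit3 had the same order, at 38.4 and 22.4 CPM in WT, 29.6, 38.6 and 25.8 CPM in i4F and 7.78 and 6.00 CPM in CER mice (adjusted p = 0.0374 against WT and 0.0437 against i4F). Ifit1 was at 104 and 129.5 CPM in WT, 53.1, 42.9 and 65.1 CPM in i4F and 14.8 and 20.7 CPM in CER mice, so that the groups formed 3 separate steps. Its test passed for CER against WT (-2.69 ± 0.28; adjusted p = 0.0328) and for i4F against CER (adjusted p = 0.0452) but not for i4F against WT (-1.04 ± 0.24; adjusted p = 0.142). Ifit2, of the same family, was at 56.8 and 48.8 CPM, then 16.4, 13.2 and 16.1 CPM, then 3.94 and 3.87 CPM, and again the groups were apart. For CER against WT its log2 fold change was -3.67 ± 0.26 (adjusted p = 0.00841).

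Ifih1, a cytoplasmic sensor of double-stranded RNA, was at 131 and 173 CPM in WT myeloid cells, 105, 78.4 and 117 CPM in i4F mice and 30.6 and 30.4 CPM in CER mice. It passed for CER against WT (adjusted p = 0.0328) and for i4F against CER (adjusted p = 0.0444). Stat2 was at 15.4 and 21.7 CPM in WT, 18.3, 25.2 and 19.4 CPM in i4F and 5.07 and 7.55 CPM in CER mice (adjusted p = 0.0425 against WT and 0.0452 against i4F). Gbp2 was at 23.0 and 21.02 CPM, then 16.5, 30.1 and 54.8 CPM, then 3.89 and 2.90 CPM (adjusted p = 0.0458 in both comparisons with CER). In all 3 genes every CER mouse was below every other mouse.

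Iigp1 and Mx2 had both WT mice above every i4F and CER mouse in myeloid cells. Iigp1 was at 18.4 and 26.4 CPM in WT, 2.62, 3.45 and 5.80 CPM in i4F and 0.588 and 1.16 CPM in CER mice (CER against WT, log2 fold change -4.80 ± 0.52; adjusted p = 0.0328). Mx2, a gene of the dynamin-like Mx family, was at 27.7 and 10.2 CPM, then 3.37, 6.00 and 3.23 CPM, then 1.54 and 2.52 CPM (CER against WT, adjusted p = 0.0376). Rtp4, at 96.8 and 62.4 CPM in WT, 106, 141 and 51.0 CPM in i4F and 16.7 and 13.7 CPM in CER mice, and Oasl1, at 73.7 and 146 CPM, then 158, 209.8 and 118 CPM, then 29.7 and 21.7 CPM, passed in both comparisons with CER.

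A second set of myeloid members was highest in i4F 1 and i4F 2. Irf7 was at 266 and 592 CPM there but at 96.8 CPM in i4F 3, 84.5 and 41.4 CPM in WT and 31.4 and 27.5 CPM in CER mice. All i4F mice were above all others, yet the spread among them was wide and no comparison passed (i4F against CER, log2 fold change 3.49 ± 0.76; adjusted p = 0.0632). Oasl2 was at 93.6, 111 and 40.6 CPM in i4F mice, 32.3 and 28.5 CPM in WT and 12.2 and 16.3 CPM in CER mice, and passed for i4F against CER (2.61 ± 0.43; adjusted p = 0.0468) but not against WT (adjusted p = 0.15). Usp18 was at 40.6, 52.5 and 21.3 CPM in i4F, 23.0 and 12.2 CPM in WT and 7.29 and 6.78 CPM in CER mice (i4F against CER, adjusted p = 0.0468). Markers of other myeloid cells differed as well. The summed monocyte marker level was 2832, 12283 and 673 CPM in i4F 1, 2 and 3, 1535 and 686 CPM in WT and 1207 and 1326 CPM in CER mice, highest in i4F 1 and 2. The neutrophil marker level was 1685, 5946 and 4902 CPM in i4F, 734 and 84.8 CPM in WT and 634 and 469 CPM in CER mice. The level of the ductal marker list, which includes Spp1, was 13049, 5397 and 1335 CPM in i4F, 1171 and 319 CPM in WT and 6473 and 8053 CPM in CER myeloid sums. The part of these marker differences in the values above was not tested.

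Ifi27l2a and Lgals3bp showed the same split without passing. Ifi27l2a was at 1890.2, 1538 and 509.6 CPM in i4F 1, 2 and 3, 418 and 722 CPM in WT and 631 and 441 CPM in CER myeloid cells (i4F against WT, adjusted p = 0.253). Lgals3bp was at 274, 177 and 104 CPM, 47.6 and 62.4 CPM and 60.5 and 74.5 CPM (i4F against WT, 1.85 ± 0.42; adjusted p = 0.141). Irgm1 was at 18.4 and 15.6 CPM in WT, 13.6, 21.5 and 10.97 CPM in i4F and 5.70 and 6.00 CPM in CER mice (CER against WT, adjusted p = 0.0664). Bst2 was above both WT mice in both CER mice, at 410.2 and 391 CPM in WT, 679, 492 and 404 CPM in i4F and 590.4 and 561 CPM in CER mice (adjusted p = 0.241).

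The myeloid counts rest on few libraries. Of the fits that left out a mouse, only those without i4F 3 have the share of all genes called beside the count. For CER against WT the 13 calls became 0 without WT 2, CER 1 or CER 2, 2 without i4F 1, 5 without WT 1, 7 without i4F 2 and 19 without i4F 3, where 16.4% of all genes were called. For i4F against CER the 14 became 0 without i4F 1, i4F 2, CER 1 or CER 2, 8 without WT 1 or WT 2 and 36 without i4F 3, all of them higher in i4F, with 10.1% of all genes called. For i4F against WT, leaving out i4F 3 gave 9 higher and 3 lower, with 12.4% of all genes called. With a term for the library name series the counts were 5 for CER against WT and 0 for i4F against CER. Adding the caerulein cluster named B lymphocytes, which is led by dendritic genes like a cluster kept in each other group, was a choice made after seeing the data. It left 4 calls for CER against WT and 2 for i4F against CER, with 0.0403% and 0.0564% of all genes called.

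**Figure D5:**
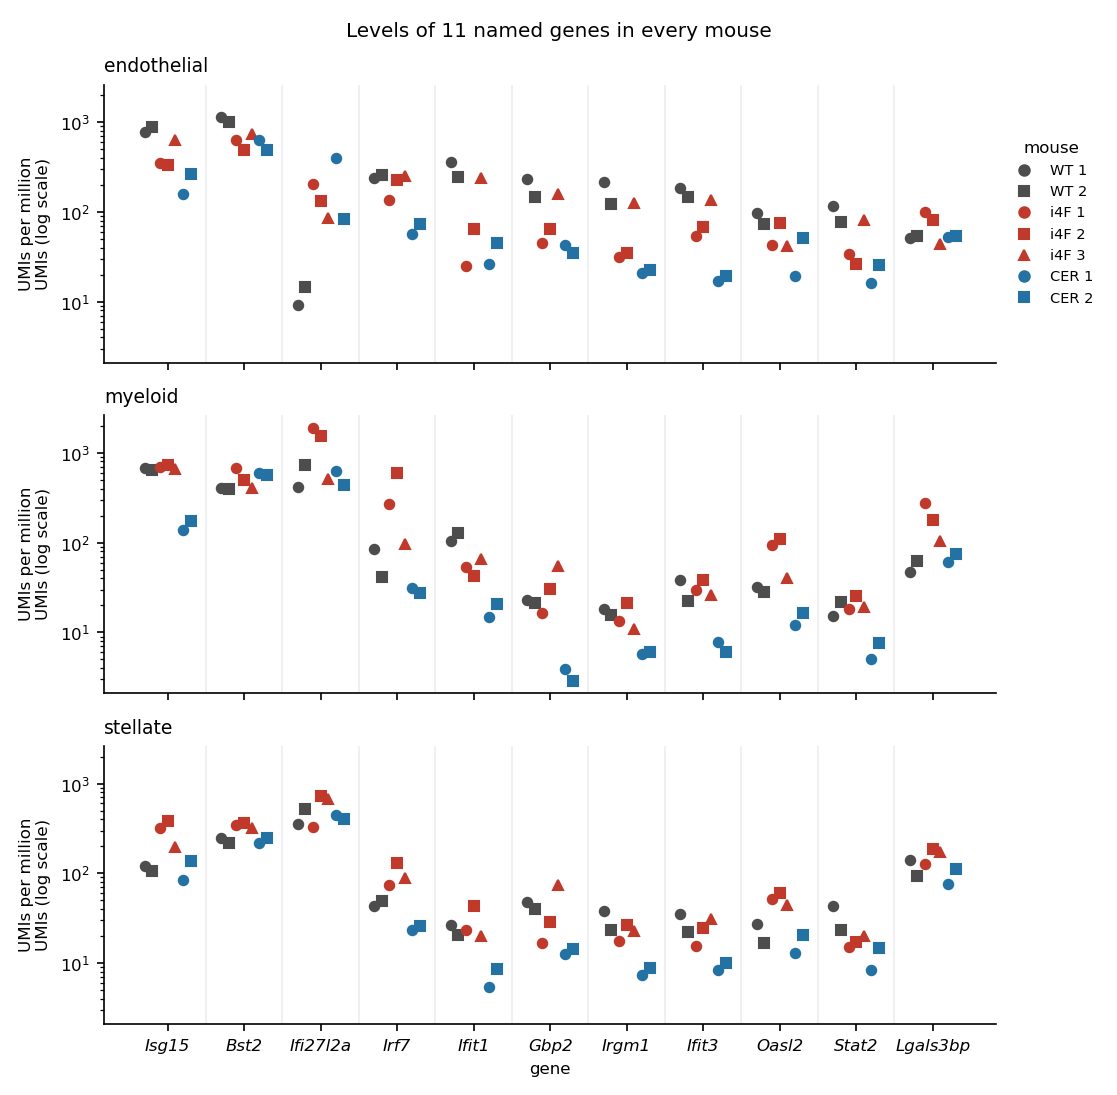
CPM on a log axis of the 11 genes followed in every class, in endothelial, myeloid and stellate sums, with 1 point per mouse coloured by group. Isg15 in myeloid cells sits at 635 to 722 CPM in the WT and i4F mice and at 137 and 172 CPM in the CER mice, while in stellate cells i4F mice at 197 to 387 CPM lie above both other groups.

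Stellate cells are the fibroblast-like cells that lay down matrix in the injured pancreas. Of 38 members tested in i4F stellate cells, 13 rose and 0 fell against WT, with 20.6% of all 14818 genes tested called and 12.0% called higher, so that the members' share stands beside a high background. The groups also differ in their stellate clusters. In WT, 2739 cells were in the first cluster named quiescent, led by Smoc2, Hsd11b1 and Crispld2, 631 in the second, led by Pi16 and Fn1, and 275 in the cluster named activated, which was led by Acta2. The 6917 and 1437 i4F and 5715 CER stellate cells were all in clusters named activated, led by Col1a1 in CER and in the larger i4F cluster. Comparisons with WT therefore set clusters named activated against clusters mostly named quiescent, and the part of this difference in the values was not tested. The direct test of class differences given below called 0 members for the i4F effect in stellate cells. By role, all 5 OAS genes rose, with a median log2 fold change of 2.14, as did 3 of 6 sensors and transcription factors and 2 of 7 Ifit, Isg15 and radical SAM genes, while 0 of 7 GTPases passed, with a median of -0.27. Zbp1, a sensor of Z-form nucleic acids, was at 7.31 and 6.79 CPM in WT and at 79.7, 94.4 and 46.8 CPM in i4F mice (3.54 ± 0.34; adjusted p = 0.00921). It was also higher in CER mice, at 14.3 and 18.0 CPM (1.34 ± 0.33; adjusted p = 0.0382), and was the member called higher in that comparison.

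The OAS genes make oligoadenylates that switch on RNase L, or are relatives of such enzymes. Oasl2 was at 27.2 and 16.7 CPM in WT stellate cells and 51.9, 60.2 and 44.5 CPM in i4F mice (log2 fold change 1.43 ± 0.27; adjusted p = 0.0233). Oasl1 was at 1.69 and 2.63 CPM against 12.7, 14.5 and 4.95 CPM (adjusted p = 0.0278), Oas1a at 8.62 and 3.62 CPM against 24.7, 26.2 and 12.9 CPM (adjusted p = 0.0266) and Oas2 at 2.06 and 0.986 CPM against 5.59, 7.99 and 3.22 CPM (adjusted p = 0.04). Oas3 had 0 UMIs in both WT stellate sums and 175 in the i4F sums, at 1.64, 4.32 and 0.990 CPM, which is at least 12.0-fold higher when WT is set to 3 counts over the group (adjusted p = 0.0298). In each OAS gene all 3 i4F mice were above both WT mice, as in 13 of the 38 members and 20.6% of all genes tested, and i4F 3 was the lowest of the 3. The i4F mice differ in their clusters: 1167 of 1280 stellate cells of i4F 3 sat in the second i4F stellate cluster, led by Clec3b, C3, Gsn, Ccl21a and Slpi, with Dmkn and Upk3b also among its 10 leading genes, against 144 of 4393 in i4F 1 and 126 of 2681 in i4F 2. In the stellate sums the lymphatic marker level was 162 and 163 CPM in WT and 403, 391 and 1116 CPM in i4F mice, and the level of the 11 ductal markers listed 255 and 92.0 CPM against 2443, 3864 and 516 CPM. The part of these differences in the i4F values was not tested.

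Isg15 was at 121 and 105 CPM in WT stellate cells and 322, 387 and 197 CPM in i4F mice (log2 fold change 1.57 ± 0.32; adjusted p = 0.0259), and at 84.0 and 136 CPM in CER mice, which overlapped WT (adjusted p = 0.846). Irf7 was at 43.8 and 49.6 CPM, then 74.3, 131 and 87.8 CPM (1.21 ± 0.27; adjusted p = 0.0299), with 23.1 and 25.8 CPM in CER mice. Bst2 was at 245 and 218 CPM, then 345, 362 and 317 CPM (0.72 ± 0.17; adjusted p = 0.0326), with 219 and 246 CPM in CER mice. For these 3 genes the i4F mice stood above all the others. The remaining calls were Usp18, Ifi44, Dhx58, a regulator of RNA sensing, and Rsad2, with log2 fold changes of 0.99 to 1.64.

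In CER stellate cells 13 members fell and 1 rose against WT, with 17.1% of all genes called, 7.10% lower and 9.99% higher, and the median of the members was -1.09. Irgm1 was at 38.2 and 23.2 CPM in WT, 17.5, 26.9 and 23.0 CPM in i4F and 7.31 and 8.79 CPM in CER mice (CER against WT, log2 fold change -1.77 ± 0.29; adjusted p = 0.0163). Ifit1 was at 26.6 and 20.6 CPM, then 23.6, 43.3 and 20.3 CPM, then 5.45 and 8.52 CPM (-1.62 ± 0.39; adjusted p = 0.0358). Ifit3 was at 35.2 and 22.4 CPM, then 15.4, 24.9 and 30.7 CPM, then 8.35 and 10.1 CPM (adjusted p = 0.0367). For these genes WT and i4F mice overlapped and the CER mice were lowest.

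Stat2 was at 43.5 and 23.2 CPM in WT stellate cells, 15.1, 17.1 and 20.3 CPM in i4F and 8.38 and 14.6 CPM in CER mice, with CER below both WT mice (adjusted p = 0.04). Mx2 was at 11.4 and 6.90 CPM in WT and 0.967 and 1.86 CPM in CER mice (log2 fold change -2.61; adjusted p = 0.0312), and Parp14, an ADP-ribosyltransferase, at 27.3 and 26.6 CPM against 8.99 and 9.72 CPM (adjusted p = 0.0184). Of the genes that did not pass in any stellate comparison, Ifi27l2a was at 358 and 525 CPM in WT, 331, 724 and 666 CPM in i4F and 444 and 400.2 CPM in CER mice. Gbp2 was at 48.0 and 39.9 CPM, then 16.6, 29.0 and 74.0 CPM, then 12.6 and 14.4 CPM, and Lgals3bp at 140.3 and 94.1 CPM, then 127, 187 and 172 CPM, then 75.2 and 111 CPM. WT and i4F mice overlapped for all 3 genes, and CER mice lay below WT for Gbp2. Oasl2 was at 12.9 and 20.6 CPM in CER stellate cells (adjusted p = 0.569 against WT). In i4F against CER, 4 of 38 members were higher, Usp18, Zbp1, Irf7 and Xaf1, with log2 fold changes of 1.496 to 2.64 (adjusted p = 0.049 each), against 0.459% of all genes called and 0.304% called higher.

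The stellate counts also rest on single libraries, and here too the share of all genes called is given only for the fits without i4F 3. For i4F against WT the 13 calls became 0 without WT 1 or WT 2, 1 without i4F 1, i4F 2, CER 1 or CER 2, and 15 higher with 10 lower without i4F 3, where 47.8% of all genes were called. For CER against WT the 14 became 0 without WT 1, WT 2, CER 1 or CER 2, 11 without i4F 1, 7 without i4F 2 and 24 without i4F 3, with 39.7% of all genes called. For i4F against CER the 4 became 0 without any single mouse other than i4F 3, and 23 without i4F 3, with 11.5% of all genes called. With a term for the library name series all 3 counts were 0. Leaving out the second i4F stellate cluster and the WT cluster named activated, a choice made after seeing the data, gave 11 higher and 12 lower for i4F against WT, where 24.3% of all genes were called higher and 23.4% lower. Immune RNA in the stellate sums was 16.1 to 44.5 CPM in WT, 274 to 449 CPM in i4F and 1086 to 1704 CPM in CER mice, and its part in the differences was not tested.

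Ductal cells, which line the secretory ducts, had higher values of most members in i4F mice without a call: 0 of 34 passed against WT (0.00861% of all 11619 genes), with 18 higher and 0 lower at an unadjusted p under 0.05 (10.1% and 7.25% of all genes) and 8 called by DESeq2, which called 3.21% of all genes. The median log2 fold change was 0.99, and 18 members had all 3 i4F mice above both WT mice, as did 9.7% of all genes tested. Isg15 was at 60.0 and 70.2 CPM in WT, 201, 219 and 97.7 CPM in i4F and 33.1 and 40.6 CPM in CER mice, and Irf7 at 26.0 and 26.7 CPM, then 53.5, 118 and 48.1 CPM, then 8.46 and 9.84 CPM. In both genes the 3 groups were apart, yet adjusted p was 0.19 for i4F against WT. Without i4F 3, 17 members passed, all higher, and 13.7% of all genes were called higher in that fit.

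Ifit1 was the ductal member that fell after caerulein, 1 of 34 against 3.53% of all genes called and 0.645% called lower. It was at 21.4 and 16.7 CPM in WT ductal cells, 28.1, 32.1 and 23.6 CPM in i4F mice and 2.42 and 0 CPM in CER mice. All i4F mice were above and both CER mice below the WT mice, with log2 fold changes of -3.25 ± 0.59 for CER against WT (adjusted p = 0.0298) and 3.96 ± 0.58 for i4F against CER (adjusted p = 0.0391). In CER mice this rested on 6 and 0 UMIs. Rtp4 was the second member higher in i4F than in CER mice, at 50.8, 64.1 and 42.8 CPM against 12.5 and 12.3 CPM (adjusted p = 0.0448), with 0.387% of all genes called in that comparison and 0.0344% called higher. The call for CER against WT was lost without WT 1, WT 2, i4F 2, CER 1 or CER 2, and the count was 3 without i4F 1 and 12 without i4F 3, with 32.2% of all genes called in the latter. Both calls for i4F against CER were lost when any mouse other than i4F 3 was left out, and the count was 10 without it, with 3.23% of all genes called.

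Among the other ductal genes, Bst2 was at 106 and 105 CPM in WT, 279, 237 and 114 CPM in i4F and 314 and 306 CPM in CER mice (CER against WT, log2 fold change 1.72 ± 0.42; adjusted p = 0.0602). Lgals3bp was at 47.0 and 37.5 CPM, then 119, 111 and 61.6 CPM, then 72.2 and 97.2 CPM (adjusted p = 0.094). Ifi27l2a was at 7.76 and 27.0 CPM, then 124, 119.6 and 22.6 CPM, then 56.8 and 29.5 CPM. Both groups lay above WT for Bst2 and Lgals3bp, and i4F 3 lay among the WT mice for Ifi27l2a. Ifit3 was at 9.78 and 2.63 CPM, then 22.6, 46.9 and 12.0 CPM, then 2.42 and 1.23 CPM, and Oasl2 at 10.96 and 7.403 CPM, then 26.8, 37.0 and 22.1 CPM, then 5.64 and 7.38 CPM, with i4F mice highest in both. Stat2 (6.85 to 17.9 CPM), Irgm1 (8.61 to 41.1 CPM) and Gbp2 (1.93 to 9.86 CPM) had no difference past the test. Immune RNA was 6.24 to 71.2 CPM in WT, 202 to 1090 CPM in i4F and 1305 to 1702 CPM in CER ductal sums. Stellate markers were at 1000 and 1099 CPM in WT, 4358, 1962 and 467 CPM in i4F and 2312 and 2315 CPM in CER ductal sums. The macrophage marker list, which includes Apoe, was at 6004 and 11635 CPM, then 1771, 1429 and 8801 CPM, then 1954 and 2243 CPM. The part of these differences in the ductal values was not tested.

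The clusters named acinar, after the enzyme-secreting cells, had the lowest levels, and 28 members were tested. The acinar sums differed in their markers: the summed acinar marker level was 30823 and 38689 CPM in WT, 4965, 7391 and 21912 CPM in i4F 1, 2 and 3 and 6646 and 5198 CPM in CER mice, while the ductal marker level was 2786 and 1889 CPM, then 11828, 9485 and 4088 CPM, then 13454 and 15136 CPM. Of the 23 acinar markers chosen, only 7 were listed in any count table, and the acinar level covers those 7. Transcripts of unlisted genes are also absent from the totals behind CPM. In i4F 1 and 2, 583 of 594 and 746 of 807 cells were in the cluster Acinar_2, led by Ly6g6c, Sprr2b and Slurp1, whereas 2071 of 2130 cells of i4F 3 were in Acinar_1. The leading genes of Acinar_2 are not among the acinar markers used here. Those markers were 2.99-fold higher (geometric mean) in Acinar_2 than in the other i4F clusters together, against 13.9-fold in Acinar_1. The part of these differences in the values below was not tested. No member passed in any comparison, against 0.0808% of all 11134 genes for i4F against WT, 0.0359% for CER against WT and 0.126% for i4F against CER. At an unadjusted p under 0.05 there were 4 higher in the first, 5 lower in the second and 8 higher in the third, against 15.2%, 10.8% and 11.5% of all genes in those directions, and DESeq2 called 0, 1 and 4, with 9.95%, 8.66% and 5.43% of all genes. Irf7 was at 1.30 and 6.12 CPM in WT, 21.2, 28.6 and 9.70 CPM in i4F and 5.43 and 6.61 CPM in CER mice (i4F against WT, log2 fold change 2.17 ± 0.60; adjusted p = 0.115). Isg15 was at 10.4 and 23.2 CPM, then 45.0, 53.0 and 17.3 CPM, then 10.7 and 10.7 CPM, with i4F 1 and 2 above and the CER mice within the WT range. Bst2 was at 104 and 114 CPM, then 175, 193 and 99.4 CPM, then 214 and 206 CPM, and Ifi27l2a at 19.5 and 41.6 CPM, then 85.3, 106 and 34.6 CPM, then 126 and 52.9 CPM. For both, all mice but i4F 3 lay above WT.

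The other genes followed in acinar cells were at low levels. Ifit1 was at 1.24 to 6.51 CPM over the 7 mice, Ifit3 at 0.413 to 9.79 CPM, Stat2 at 2.27 to 5.54 CPM, Oasl2 at 1.30 to 9.40 CPM, Gbp2 at 1.13 to 6.58 CPM and Irgm1 at 2.27 to 9.40 CPM. A count of 3 over the group corresponds to 1.89 CPM in WT acinar cells. Lgals3bp was at 14.5 to 29.2 CPM. Without i4F 3, 3 members were called higher and 1 lower for i4F against WT, 2 lower for CER against WT and 7 higher for i4F against CER, with 32.7%, 19.4% and 22.5% of all genes called. Immune RNA was 33.9 to 105 CPM in WT, 335 to 1010 CPM in i4F and 1543 to 2870 CPM in CER acinar sums.

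Summed over all cells of a mouse, 16 of 39 members fell and 0 rose in CER against WT mice, with 9.08% of all 18340 genes tested called and 3.94% called lower. In such sums fewer cells of a type and less RNA per cell cannot be told apart. Endothelial cells numbered 1122 and 1212 in WT mice but 560 and 276 in CER mice. They gave 12.5% and 11.9% of all UMIs in WT mice and 1.84% in each CER mouse. Of the UMIs of the 39 genes they gave 48.4% and 41.5% in WT mice and 3.24% and 3.47% in CER mice. The part of this shift in the values over all cells was not tested. By role 5 of 7 Ifit, Isg15 and radical SAM genes, 4 of 7 GTPases, 2 of 6 sensors and transcription factors and 0 of 5 OAS genes fell. The largest changes were in Iigp1, at 257 and 212 CPM in WT mice and 10.9 and 16.4 CPM in CER mice (log2 fold change -3.72 ± 0.74; adjusted p = 0.0411), and in Ifi44, at 24.3 and 14.0 CPM against 1.91 and 2.34 CPM (-2.77 ± 0.38; adjusted p = 0.0308). Of the 39 members, 29 had both CER mice below both WT mice, as did 52.1% of all genes tested, and the 29 include the 16 that passed. Ifit1 was at 68.8 and 52.6 CPM against 9.06 and 12.1 CPM (adjusted p = 0.0279), Irgm1 at 57.8 and 31.2 CPM against 7.29 and 7.72 CPM (adjusted p = 0.0322) and Stat2 at 38.6 and 26.2 CPM against 6.96 and 11.2 CPM (adjusted p = 0.039). The 16 calls became 0 without WT 1, WT 2, i4F 2, CER 1 or CER 2, 14 without i4F 1 and 28 without i4F 3, where 46.4% of all genes were called, and 0 with a term for the name series.

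For i4F against WT and i4F against CER no gene at all passed in the sums over all cells (0%), with 13 members higher and 11 lower at an unadjusted p under 0.05 in the first (18.3% and 16.5% of all genes) and 29 higher and 0 lower in the second (7.9% and 6.48%). DESeq2 called 18 and 19 members, with 23.8% and 5.41% of all genes. Without i4F 3, edgeR called 16 higher and 12 lower in the first and 23 higher in the second, with 49.8% and 8.61% of all genes. Isg15 was at 193 and 223 CPM in WT, 365, 408 and 176 CPM in i4F and 99.6 and 128 CPM in CER mice. Irf7 was at 61.3 and 64.7 CPM, then 104, 215 and 63.5 CPM, then 28.4 and 25.5 CPM. In both genes i4F 1 and 2 were highest, i4F 3 was at or near the WT level, and CER mice were lowest. The endothelial share of all UMIs was 0.728%, 1.52% and 4.97% in i4F 1, 2 and 3, against 12.5% and 11.9% in WT mice. Its part in the sums over all cells was not tested.

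The lymphoid classes could be compared only between WT and i4F mice. The WT cluster of NK and T cells was led by Ccl5, Gzma and Nkg7 and the i4F cluster by T cell receptor genes. The summed level of 6 NK markers was 5052 and 2534 CPM in WT and 912, 492 and 855 CPM in i4F mice, while that of 8 T cell markers was 3870 and 4126 CPM against 4194, 3764 and 5017 CPM. The WT cluster of B lymphocytes was led by immunoglobulin genes, Jchain and Mzb1. Plasma cell markers were at 12479 and 13878 CPM in WT and 678, 598 and 781 CPM in i4F sums. A separate i4F cluster named follicular B lymphocytes, 118 cells also led by immunoglobulin genes, Jchain and Mzb1, was left out of the i4F sums. Cells of this kind thus entered the WT sums only, and the marker difference does not show their loss in i4F mice. In B lymphocytes 0 of 12 tested members passed against 0.447% of all 4923 genes, with 0 at an unadjusted p under 0.05 (5% of all genes higher and 4.06% lower), and DESeq2 called 0 too. In NK and T cells 0 of 10 passed against 1.51% of all 3574 genes, with 1 higher and 1 lower at an unadjusted p under 0.05 (6.49% and 7.83% of all genes), and DESeq2 called 1, with 2.8% of all genes. Ifi27l2a in NK and T cells was at 109 and 201 CPM in WT and 448, 297 and 407 CPM in i4F mice (log2 fold change 1.40 ± 0.35; adjusted p = 0.106), with all i4F mice above WT. Isg15 there was at 109 and 214 CPM against 92.7, 62.8 and 56.7 CPM, with all i4F mice below (-1.16 ± 0.36; adjusted p = 0.197). In B lymphocytes Isg15 was at 37.1 and 64.3 CPM against 137, 59.3 and 14.4 CPM, and Ifi27l2a at 189.9 and 181 CPM against 482, 391 and 267 CPM (adjusted p = 0.552).

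Whether an effect differed between classes was tested directly, as the effect in 1 class minus the mean of the effects in the other 4, with the mouse as a block. The i4F effect in endothelial cells was lower than in the other classes for 8 of 39 members and higher for 0, against 0.572% of all 14855 genes called lower. These were Oasl2, with a difference of -2.26 on the log2 scale (adjusted p = 0.00102), Isg15 (-1.95; adjusted p = 0.0125), Bst2 (-1.49; adjusted p = 0.0166), Ifi35 (-1.40; adjusted p = 0.018), Usp18 (-1.80; adjusted p = 0.0263), Irf7 (-2.10; adjusted p = 0.0316), Xaf1 (-1.73; adjusted p = 0.0316) and Rsad2 (-2.06; adjusted p = 0.0471). Oasl2 had log2 fold changes of 1.32, 1.78, 1.43 and 1.57 in acinar, ductal, stellate and myeloid cells and -0.60 in endothelial cells. Isg15 had 0.95, 1.57, 1.57 and 0.17 in the same 4 classes and -0.84 in endothelial cells. The median difference over the members was -1.15 for endothelial cells, against -0.23 over all genes. Over 10 other settings, Oasl2 was called in 8, Isg15 in 6 and each of the others in 3 or 4. The count of 8 was 0 without WT 1 or WT 2, 1 without i4F 1 or i4F 2, 2 without CER 1 or CER 2, and 23 lower with 1 higher without i4F 3, where 7.77% of all genes were called. The i4F effect in myeloid cells was higher than elsewhere for Lgals3bp (1.22; adjusted p = 0.0463), where 1.43% of all genes were called higher, and lower for Oas2 (adjusted p = 0.0206), where 3.16% were called lower and WT acinar and ductal sums held 0 Oas2 UMIs. Over the same 10 settings Lgals3bp was called in 2 and Oas2 in 5.

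For CER against WT the endothelial effect was lower than elsewhere for Bst2 (-1.71; adjusted p = 0.00846) and higher for Ifi27l2a (3.47; adjusted p = 0.0113), against 0.788% and 0.862% of all genes called lower and higher. The ductal effect on Bst2 (1.51; adjusted p = 0.0102) and the stellate effect on Isg15 (1.53; adjusted p = 0.0292) were higher than elsewhere, against 1.32% and 2.31% of all genes called higher. Isg15 had log2 fold changes after caerulein of -1.24, -0.67, -1.93 and -2.04 in acinar, ductal, endothelial and myeloid cells and 0.10 in stellate cells. In myeloid cells 3 members had a lower effect, Iigp1 (-2.53; adjusted p = 0.0332), Oasl1 (-1.85; adjusted p = 0.0331) and Ifih1 (-1.18; adjusted p = 0.0154), against 7.53% of all genes called lower. Irf9, a subunit of the ISRE-binding factor, had a higher effect in acinar cells (1.88; adjusted p = 0.0191), where 7.20% of all genes were called higher.

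The other genes of the pathway, a list of 39 ligands, receptors, kinases, transcription factors, sensors and inhibitors of which 35 were listed, had 0 to 4 calls per comparison. In the sums over all cells 30 were tested, 4 rose and 0 fell in CER against WT mice (9.08% of all genes called), and 0 passed in the other 2 comparisons. In endothelial cells 25 were tested, with 2 higher and 0 lower in CER against WT mice (4.11% of all genes called) and 0 called in i4F against WT mice. In stellate cells 27 were tested, with 2 higher and 1 lower in each comparison with WT (20.6% and 17.1% of all genes called). In myeloid cells 28 were tested, with 1 lower in CER against WT (5.66% of all genes) and 2 higher in i4F against CER mice (1.67%). No member of the list passed in acinar or ductal cells.

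Among the ligands, Ifnb1, the gene of interferon beta, was read mostly in myeloid cells. Its level there was 147 and 129.5 CPM in WT mice, 36.6, 23.6 and 93.5 CPM in i4F mice and 27.5 and 30.2 CPM in CER mice. All i4F and all CER mice were thus below both WT mice, as in 20.5% and 30.5% of all genes tested. No gene of the list passed for i4F against WT in myeloid cells. The clusters under the myeloid sums differ between groups, as given above, and their part in these values was not tested. Ifng, the gene of interferon gamma, was at 394 and 364 CPM in WT NK and T cells and at 67.0, 56.2 and 58.9 CPM in i4F mice, and it fell (log2 fold change -2.52 ± 0.26; adjusted p = 0.00416). These values rested on 72 and 85 UMIs in WT and 13, 17 and 80 UMIs in i4F mice. The NK marker level given above was also lower in all i4F mice, and fewer NK cells and less Ifng per cell cannot be told apart in these sums.

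In signalling, Jak2, a kinase of the type II receptor, was at 50.7 and 31.9 CPM in WT myeloid cells, 45.1, 48.8 and 58.7 CPM in i4F and 17.6 and 15.7 CPM in CER mice. Both CER mice were below every other mouse, and the gene passed for i4F against CER (adjusted p = 0.0452). Irf1, a transcription factor of the type II response, was at 765 and 879 CPM in WT endothelial cells, 54.4, 80.1 and 688 CPM in i4F mice and 67.1 and 117 CPM in CER mice. As with Ifit1 and Iigp1, i4F 3 stayed near the WT mice, and no comparison passed (CER against WT, log2 fold change -3.12 ± 1.08; adjusted p = 0.154). Tmem173, the gene of the DNA-sensing adaptor STING, rose in stellate cells of both groups, from 20.6 and 15.1 CPM in WT to 47.9, 44.6 and 28.7 CPM in i4F (adjusted p = 0.0241) and 36.1 and 46.3 CPM in CER mice (adjusted p = 0.026).

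Across 89 sums of a cluster and a mouse, the members varied together to different degrees. The median correlation over 741 pairs of members was 0.48 on the log2 scale, from -0.315 to 0.836, and 703 pairs were positive. These sums share libraries, depth and cell types, so the values are a description. Irf7 followed the sum of the other members most closely (r = 0.847), then Isg15 (0.816) and Parp14 (0.815), whereas Lgals3bp (0.218) and Mx1 (0.300) followed it least. Ifit1 and Rtp4 were called in 6 of the 20 comparisons each, and Mx1, Ifi35, Gbp5, Igtp and Lgals3bp in none.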

How the data were processed

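The authors deposited 1 table of UMI counts per group (genes by cells) with cluster names, made with Cell Ranger on mm10 and 10x 3′ v3 libraries. The counts are whole numbers, and the deposited tables also hold a mitochondrial percent per cell, which was not used. Whether the ambient RNA correction of the study (SoupX) had been applied to the deposited counts is not given in the sources used here. The 39 genes, the pathway list and the tests were chosen with earlier results of these data known. UMIs were summed per mouse (at least 20 cells) over authors' clusters of 1 class, and tested with edgeR 4.0.16 (quasi-likelihood F test, TMM, filterByExpr, 1 fit of the 3 groups, two-sided, Benjamini-Hochberg over all genes tested in that fit, threshold 0.05) in R 4.3.3. limma 3.58.1 and DESeq2 1.42.0 served as alternatives, and sums, thinning and plots used Python 3.11.15, numpy 2.4.6, pandas 2.3.3, scipy 1.17.1 and matplotlib 3.10.9. The ± after a log2 fold change is its standard error. Each group has 2 or 3 mice. A p-value sets a difference against 1 estimate of the spread between mice, shared by all groups in the fit and drawn towards that of other genes. The calls between 2 groups thus also depend on the mice of the third group where it is in the fit. No doublets were removed beyond what the authors did. Values in every mouse are given for Ifit1, Ifit3, Isg15, Irf7, Stat2, Oasl2, Bst2, Ifi27l2a, Gbp2, Irgm1 and Lgals3bp, with ranges where acinar and ductal levels were low, and per comparison for at most 5 more called members in each direction, those that changed most. In simulated counts with 200 changed genes the endothelial i4F against WT fit recovered 87.9% of 4-fold and 14.1% of 2-fold changes, and the myeloid fit 56.2% and 2.1%. All simulated mice shared the pooled mean of each gene and the average spread of genes of its level. No simulated mouse stood apart as i4F 3 did, so these shares do not measure what the real fits could find. Promoters were RefSeq's on GRCm38.p6. Alternatives were other size factors, no filter, DESeq2, a replicate block, a term for the library name series, only the groups compared, deeper cells, other cluster choices and each mouse left out.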

Additional observations from a re-analysis of the deposited data

Results flagged for a closer look

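The tests of whether an effect differed between cell classes gave 10 calls in i4F mice and 8 in CER mice, Bst2 being called in both ductal and endothelial cells of the latter, with each value the log2 effect in 1 class minus the mean effect in the other 4. In i4F endothelial cells the effect was lower for Oasl2 (-2.26), Irf7 (-2.10), Rsad2 (-2.06), Isg15 (-1.95), Usp18 (-1.80), Xaf1 (-1.73), Bst2 (-1.49) and Ifi35 (-1.40), against 0.572% of all genes called lower. In i4F myeloid cells it was higher for Lgals3bp (1.22; adjusted p = 0.0463, against 1.43% of all genes called higher) and lower for Oas2 (-4.40; adjusted p = 0.0206, against 3.16% called lower). The size of the Oas2 value depends on the prior count, since WT acinar and ductal sums held 0 Oas2 UMIs. In CER mice the effect was higher for Irf9 in acinar (1.88), Bst2 in ductal (1.51), Isg15 in stellate (1.53) and Ifi27l2a in endothelial cells (3.47). All genes were called higher there at 7.20%, 1.32%, 2.31% and 0.862%. It was lower for Bst2 in endothelial cells (-1.71), against 0.788% of all genes. In myeloid cells it was lower for Iigp1 (-2.53), Oasl1 (-1.85) and Ifih1 (-1.18), against 7.53%. The 1 of 39 acinar and 3 of 39 myeloid calls are below or near that share of all genes. The counts of such calls depended on single mice. Without i4F 3 they were 67 for i4F and 36 for CER, where 7.77% to 21.1% and 9.02% to 18.7% of all genes were called per class. Leaving out other mice gave fewer than these, and in some fits no call.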

How the results depend on the processing

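The counts of called members depended on the processing, and of 1023 recomputed values for the named calls, 615 kept the call, 408 lost it and 0 turned their sign. Counts below are given for i4F against WT, CER against WT and i4F against CER, in that order, and the cause was not tested. As reported they were 0, 16 and 0 over all cells, 0, 0 and 0 in acinar, 0, 1 and 2 in ductal, 13, 14 and 4 in stellate, 0, 10 and 2 in endothelial and 0, 13 and 14 in myeloid cells, and 0 for i4F against WT in NK and T cells, with 10 and 8 class-dependent calls for i4F and CER. Percentages after a count are the share of all genes called in the same fit. With DESeq2 the counts were 18 and 19 for the first and last comparison over all cells (23.8% and 5.41%), 1 and 4 for the second and last in acinar (8.66% and 5.43%), 8, 2 and 8 in ductal (3.21%, 9.81% and 2.36%), 22 for i4F against CER in stellate (5.45%), 1, 19 and 5 in endothelial (3.58%, 5.39% and 1.46%), 8 and 33 for the first and last in myeloid (5.09% and 8.99%), and 1 in NK and T cells (2.8%). Without the filter on low counts they were 7 and 2 (first and last) over all cells (6.16% and 0.297%), 3, 3 and 6 in acinar (8.34%, 6.26% and 5.78%), 13, 6 and 11 in ductal (5.44%, 10.5% and 3.5%), 23 and 24 (second and last) in stellate (14.3% and 3.99%), 16, 29 and 13 in endothelial (4.18%, 5.74% and 1.96%), 14, 21 and 32 in myeloid (5.61%, 9.3% and 6.8%) and 1 in NK and T cells (1.4%). The class-dependent calls were then 32 for i4F (1.28% to 4.59% by class) and 23 for CER (2.05% to 5.21%). With RLE size factors the stellate count for i4F against CER was 1 (0.385%).

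The replicate numbers name different mice, and deviations of mice with the same number correlated between -0.369 and 0.126, so they do not pair the samples. Only i4F 3 holds the highest number, so the block fits that mouse exactly and it adds nothing to the estimated differences. The counts with the block thus also leave out what i4F 3 shows. With the number as a replicate block the counts were 23, 27 and 10 over all cells (44.4%, 40.5% and 2.8%), 4, 1 and 6 in acinar (29.6%, 16.7% and 19.2%), 13, 7 and 6 in ductal (19.2%, 23.5% and 0.8%), 21, 25 and 14 in stellate (43.9%, 35.3% and 5.96%), 21, 25 and 0 in endothelial (9.92%, 7.84% and 0.331%), 8 and 25 (first and last) in myeloid (6.6% and 3.19%) and 1 in NK and T cells (7.16%).

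With a term for the library name series, the counts were 0 for CER against WT over all cells, 0 and 0 (second and last) in ductal, 0, 0 and 0 in stellate, 4 and 0 (second and last) in endothelial and 5 and 0 in myeloid cells, with 0% to 1.34% of all genes called in these fits. With only the groups compared in the fit they were 30 for CER against WT over all cells (46.1%), 9 and 0 (second and last) in ductal (28.5% and 0.243%), 1, 25 and 0 in stellate (0.757%, 38.8% and 0.0244%), and 1 and 27 (first and second) in endothelial cells (0.193% and 8.31%).

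Without clusters led by neutrophil or dendritic markers the myeloid counts were 9 and 33 (first and last, 6.08% and 6.98%). Other cluster choices were made after seeing the data. Adding the caerulein cluster named B lymphocytes gave 4 and 2 (second and last) in myeloid cells (0.0403% and 0.0564%), leaving out the WT cluster named activated and the second i4F cluster gave 23, 24 and 21 in stellate cells (47.7%, 37.8% and 8.78%), leaving out Acinar_1 gave 2 and 4 (first and last) in acinar cells (27.5% and 18.0%), and Endothelial_1 alone gave 1 for i4F against WT (1.7%).

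Leaving out each mouse in turn gave 0 to 28, 0 to 28 and 0 to 23 calls over all cells, 0 to 4, 0 to 2 and 0 to 7 in acinar, 0 to 17, 0 to 12 and 0 to 10 in ductal, 0 to 25, 0 to 24 and 0 to 23 in stellate, 0 to 23, 0 to 26 and 0 to 4 in endothelial, 0 to 12, 0 to 19 and 0 to 36 in myeloid and 0 to 1 in NK and T cells, and 0 to 67 and 0 to 36 class-dependent calls for i4F and CER. The highest counts came from leaving out i4F 3, except in NK and T cells (WT 2), and where a group was left with 1 mouse, that mouse is assumed to vary like the others. Without i4F 3 more of all genes were called too, and those shares are given with each class above. In the class-dependence fits without i4F 3, 7.77% to 21.1% of all genes were called by class for i4F and 9.02% to 18.7% for CER. The log2 ratio of the summed level ran from -0.074 to 0.09 in ductal and -1.873 to -1.643 in endothelial cells for CER against WT, and from -0.394 to -0.126 for i4F against WT in NK and T cells.

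Without Ifi27l2a, the member with the highest mean level, the log2 ratio for CER against WT was -1.085 over all cells, -0.873 in stellate, -1.901 in endothelial and -0.953 in myeloid cells, and -0.684 for i4F against WT in NK and T cells. With cells of at least 500 genes it was 0.841 for i4F against WT in B lymphocytes. Thinned to 1000 UMIs, the group means of the share of cells with at least 3 UMIs of the 39 genes were 90.5%, 61.4% and 39.5% for WT, i4F and CER endothelial cells and 50.2%, 67.2% and 26.2% for myeloid cells. The filter on low counts left 28, 12 and 10 of the 39 genes in the acinar, B lymphocyte and NK and T comparisons.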
